A study of Mus musculus with 8 samples.

Results

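The kinesin motor family was followed over size-sorted hematopoietic stem cells (HSCs), the bone marrow cells that renew all blood lineages. Members were the protein-coding genes with a Kif symbol made of a number and at most 1 letter, plus Kifc1, Kifc2 and Kifc3, which gave 41 of the 50686 genes in the deposited table. Of these, 12 are known as mitotic motors and 29 are the other, mostly transport kinesins. All 12 mitotic and 23 of the other members held enough counts to be tested, among 16066 tested genes in all.

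Kinesins are motor proteins that use ATP to walk along microtubules or to take microtubule ends apart. Transport kinesins carry vesicles, organelles and protein complexes through the cytoplasm throughout the cell cycle. Mitotic kinesins build and focus the spindle, move chromosomes and finish cytokinesis, and their transcripts are known to accumulate late in the cell cycle and to be low in resting cells.

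HSCs came from C57BL/6J mice, and their age, sex and treatment are not given in the sources used here. Lineage-depleted marrow was sorted on CD117, Sca-1, CD150 and CD48, and per the labels the cells taken for RNA were in G0/1, the phase before DNA replication. Large and Small HSCs were the top and bottom 10% of the size range, Medium HSCs were taken around the mean size, and All HSCs had no size gate. Each of these 4 groups has 2 libraries, numbered 1 and 2, of 10000 cells each, with total counts between 13698362 (Small 2) and 16838448 (All 2). Whether a group's 2 libraries are from different mice is not stated in the labels, and p-values here reflect the spread between libraries, which may be technical.

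Libraries numbered 1 differed from those numbered 2 in every group, and this touches each result on mitotic genes. Averaged over the groups, the mitotic kinesins were higher in number 1 by a median log2 difference of 1.35, against -0.07 for the other kinesins and 0.00 for all tested genes. Granulocyte and monocyte markers (all 11 detected in every library) were higher in number 1 by 2.09, and the median of 6 HSC genes was -1.63. Erythroid, megakaryocyte, and T and NK cell markers were also higher in number 1 (medians of 2.35, 1.08 and 0.85), and B cell markers were lower (-1.83). In the T and NK list, Cd3e had at most 1.39 CPM. It was lower in number 1 within Medium (0.313 and 0.493 CPM in numbers 1 and 2) and within Large (0.286 and 0.46 CPM). The sort antigens Kit (513 to 1200 CPM), Ly6a (20.4 to 366), Slamf1 (7.58 to 22.6) and Cd48 (12.0 to 159) were detected in all 8 libraries, although conventional HSC gates take cells without surface CD48. CPM is counts scaled to a common library total, here with TMM factors, and a count of 3 corresponds to 0.169 to 0.214 CPM.

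The mitotic genes have a shared feature in their promoters that does not depend on the counts. The cell cycle genes homology region (CHR), an element bound by the MuvB complexes that repress genes in resting cells and activate them late in the cell cycle, has the letters TTTGAA. Windows from 250 bases before to 50 after the RefSeq start (GRCm38.p6) were at hand for 11 mitotic members and 21 others. On either strand, TTTGAA occurred in 10 of the 11 mitotic windows (90.9%) and in 3 of 21 others (14.3%), against 20.2% of all 27025 genes and 14.8% of the 11007 tested genes with a window. Close to the start, from 50 bases before to 25 after, it occurred in 8 of 11 mitotic windows (72.7%) and 2 of 21 others (9.52%), against 3.13% of tested genes. The CCAAT box, which was searched as CCAAT on either strand, occurred in 7 of 11 (63.6%) and 8 of 21 (38.1%), against 42.7% of tested genes, and close to the start in 5 of 11 (45.5%) and 2 of 21 (9.52%), against 15.7% of tested genes. The RefSeq starts of Kif2c and Kif14 lie 3867 and 1505 bases inside the GENCODE 5′ end of the gene, and Kif18a was the mitotic member without TTTGAA. A match of letters is a description and shows no binding.

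These 8 stretches of 30 bases hold the near-start match of each mitotic member that has one, read 5′ to 3′ on the gene's strand, with TTTGAA or its reverse complement TTCAAA in capitals. They lie at chr19:37376345-37376374 (plus strand, Kif11), chr9:122951044-122951073 (plus, Kif15), chr7:127042426-127042455 (minus, Kif22), chr9:61946786-61946815 (minus, Kif23), chr11:102925110-102925139 (minus, Kif18b), chr17:33890621-33890650 (minus, Kifc1), chrX:100626066-100626095 (plus, Kif4) and chr19:34922347-34922376 (plus, Kif20b).
Kif11: ggtcagtcgtctccatttTTCAAAattgag
Kif15: gtccgttggggcgccaaaTTCAAAtctgcg
Kif22: gaggcggggccccggtaaTTCAAAagagag
Kif23: cggccgctgattggcctgTTTGAAatgcgc
Kif18b: gatgagcggaccggctagTTTGAAcgcgcc
Kifc1: actgcgcggaggttgaaaTTCAAAagtggc
Kif4: tggcgcctctgggatcaaTTTGAAacttgg
Kif20b: ggcgccgagccgccattgTTTGAATTTGAA
In Kif11 and Kif15 the match begins at the same distance, 19 bases before the start (-19), and in Kif22 at -17. Kif20b carries 2 copies in direct succession.

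Kif11 and Kif22 are also shown over the 80 bases before their starts, at chr19:37376302-37376381 and chr7:127042421-127042500, because each pairs the CHR with an upstream CCAAT box. Here the capitals mark ATTGG, the reverse complement of CCAAT, and TTCAAA.
Kif11: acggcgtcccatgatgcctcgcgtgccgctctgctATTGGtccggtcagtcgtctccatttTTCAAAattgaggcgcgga
Kif22: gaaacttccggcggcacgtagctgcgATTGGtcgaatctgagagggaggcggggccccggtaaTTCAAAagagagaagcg
The CCAAT box begins at -45 in Kif11 and at -54 in Kif22. Kif23, Kif18b, Kifc1 and Kif4 also hold a CCAAT box upstream of their near-start TTTGAA match, so the pairing is not particular to Kif11 and Kif22.

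In TPM, which accounts for transcript length and so allows genes to be compared, mitotic kinesins were the more abundant class in every library, although the cells were labelled G0/1. Their sum was 448 and 170 TPM in All 1 and 2, 413 and 213 TPM in Small, 353 and 183 TPM in Medium, and 517 and 416 TPM in Large. They made up 77.8% and 55.5% of the family's TPM in All, 80.7% and 58.6% in Small, 73.1% and 55.8% in Medium, and 81.9% and 77.9% in Large. Libraries numbered 2 were lower than those numbered 1 in each group, and Large 2 was the library numbered 2 with the highest share. The other kinesins summed to a narrower range of 98.5 (Small 1) to 151 TPM (Small 2). Kif22, a chromosome-arm motor, had the highest mean over the 8 libraries, at 98.1 TPM. It was followed by the cytokinesis motors Kif23 and Kif20a (48.2 and 42.2 TPM), Kif15 (42.1) and, as the first transport member, the conventional kinesin Kif5b (38.1). The neighbours Kif23, Kif20a, Kif15 and Kif5b are close, and the range over libraries of each exceeds the gaps between their means. Kif2c (29.6), Kif11 (26.7), Kif18b (24.2) and Kif3a (23.3) came next, and no other member had a mean above 10 TPM (Kif4, the next, had 9.71). This order rests on the transcript lengths used for TPM, and it was not the same in CPM for genes of similar length. Kif11 had a mean of 92.6 CPM (longest coding transcript 4819 bases), against 41.3 CPM for Kif15 (4858 bases). Kif20a had 108 CPM (3674 bases), against 62.3 CPM for Kif23 (3398 bases).

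**Figure D1:**
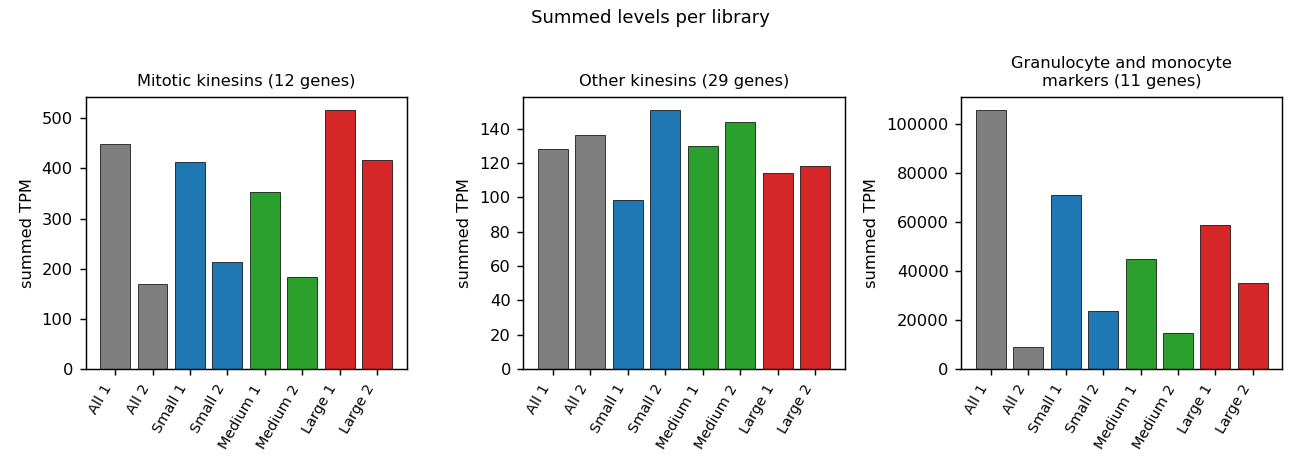
Summed TPM per library (All, Small, Medium and Large, libraries 1 and 2) of the 12 mitotic kinesins, the 29 other kinesins and 11 granulocyte and monocyte markers; bars start at 0. Mitotic kinesins summed to 517 and 416 TPM in Large, against 413 and 213 TPM in Small, and the marker sum was lower in number 2 than in number 1 of each group.

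Large HSCs held more mitotic kinesin transcript relative to other genes than Small HSCs, within both library numbers. All 12 members had a fitted difference above 0, as had 49.9% of all tested genes, with a median log2 fold change of 0.84, against 0.00 for all tested genes. Within number 1 the median was 0.44 and within number 2 it was 1.34, and 12 of 12 members had Large above Small in each number, which held for 32.9% of all tested genes. Kif18b and Kif20a were nearly equal within number 1 (log2 differences of 0.00 and 0.07). In 7 of 12 both Large libraries lay above both Small libraries, against 17.7% of all tested genes. No member passed edgeR's test (adjusted p = 0.975 for each of the 12), and edgeR called 0 of 16066 genes (0.0%), with 506 (3.15%) at an unadjusted p under 0.05 and 12 called by DESeq2. At an unadjusted p under 0.05, 2 of the 12 were higher (Kif18a and Kif20b), against 1.77% of tested genes. Without Small 2 the median was 0.30 and the fitted values of Kif20a, Kif2c, Kif18b and Kif4 were -0.18, -0.01, -0.14 and -0.04, and without Small 1 the median was 1.66. Each such fit sets both numbers of Large against 1 number of Small. In bulk RNA, a change in the number of cells that express a gene and a change in RNA per cell cannot be told apart.

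The replicate number was also fitted as a block, since libraries with the same number deviated together. With this block the median of the mitotic members was 1.04, and 6 of 12 had an unadjusted p under 0.05 and were higher, against 9.44% of tested genes. After adjustment edgeR again called 0 genes with the block (0.0%). DESeq2 with the block, a test added after the data were seen, called 1438 genes (8.95%, of which 4.68% higher and 4.27% lower). Among them were 5 of the 12 mitotic kinesins, all higher in Large: Kif22, Kif15, Kif11, Kif18a and Kif20b. The calls on these genes therefore rest on the tool and on the block.

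Of the 3 spindle motors, Kif15 and Kif11 were called by DESeq2 with the block, and Kifc1 was given no adjusted p there. Kif11 (Eg5) slides spindle microtubules apart and so separates the poles, and Kif15 can act beside it. Kif15 had 82.4 and 45.0 CPM in Large 1 and 2, against 32.9 and 24.6 CPM in Small 1 and 2. The means were 63.7 ± 26.5 CPM in Large and 28.8 ± 5.82 CPM in Small (SD, n = 2 each), and the groups did not overlap. The edgeR log2 fold change was 1.15 (SE 0.583, adjusted p = 0.975), and with the block 1.08 (SE 0.248, adjusted p = 0.0934). DESeq2 with the block gave Kif15 an adjusted p of 0.00479. It was also the only member called by limma-voom with the block (adjusted p = 0.0449, among 205 genes called, 1.28%).

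Kif11 had 169 and 101 CPM in Large 1 and 2, against 113 and 33.8 CPM in Small 1 and 2. Large 2 lay below Small 1, so the groups overlapped, but Large was higher within each number (log2 difference 0.58 within number 1 and 1.58 within number 2). The edgeR log2 fold change was 0.88 (SE 0.835, adjusted p = 0.975) without the block and 1.12 (SE 0.257, adjusted p = 0.0944) with it. DESeq2 with the block gave an adjusted p of 0.0021. Kifc1, a minus-end motor that bundles spindle microtubules, had 11.2 and 9.54 CPM in Large, against 8.17 and 3.28 CPM in Small, with no overlap (log2 0.85, SE 1.17). A near copy of Kifc1, Kifc5b, held 1.46 to 5.22 CPM, and reads shared by the pair make both uncertain.

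The chromosome motors were higher in Large mainly within number 2. Kif22 (Kid) pushes chromosome arms outward, and it was the 1 mitotic kinesin with both Large libraries above all 6 others, a pattern of 4.3% of tested genes that was looked for after the values were seen. Kif22 had 233 and 185 CPM in Large 1 and 2, against 173 and 62.7 CPM in Small 1 and 2, with means of 209 ± 34.1 CPM in Large and 118 ± 78.1 CPM in Small (SD, n = 2 each). Its edgeR log2 fold change was 0.83 (SE 0.570, adjusted p = 0.975) without the block and 1.00 (SE 0.244, adjusted p = 0.102) with it, and DESeq2 with the block gave 0.00343. Kif4, a chromosome motor that also works with Prc1 at the spindle midzone, had 60.5 and 39.7 CPM in Large, against 51.3 and 17.0 CPM in Small. Kif2c (MCAK), which takes microtubule ends apart at faulty chromosome attachments, had 107 and 69.2 CPM in Large, against 88.6 and 27.8 CPM in Small. Both overlapped between the groups and were nearly equal within number 1, with log2 differences of 0.24 and 0.27 there and 1.22 and 1.31 within number 2.

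Kif18a and Kif18b, which control microtubule plus ends, differed in how their libraries fell. Kif18a dampens the movements of chromosomes at the metaphase plate, and it had 20.9 and 12.5 CPM in Large 1 and 2, against 7.26 and 7.50 CPM in Small 1 and 2. The Small libraries were nearly identical and lay below the 6 others. Kif18a's edgeR log2 fold change was 1.18 (SE 0.420, unadjusted p = 0.0268, adjusted p = 0.975), and 1.13 with the block (adjusted p = 0.132; DESeq2 with the block 0.0266). Kif18b, which acts on astral microtubules, had 66.3 and 53.5 CPM in Large, against 66.1 and 24.1 CPM in Small. Its log2 difference was 0.00 within number 1 and 1.14 within number 2, so the fitted 0.41 (SE 0.862) came from number 2. Whether the fold changes of Kif18a and Kif18b differ was not tested.

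Of the cytokinesis motors, Kif20b and Kif14 showed the larger fitted differences and Kif23 and Kif20a the smaller. Kif20b, needed for the final separation of daughter cells, had 20.7 and 9.40 CPM in Large 1 and 2, against 7.33 and 3.57 CPM in Small 1 and 2. The groups did not overlap, and both Small libraries lay below the 6 others. Its edgeR log2 fold change was 1.46 (SE 0.599, unadjusted p = 0.0453, adjusted p = 0.975), and 1.45 with the block (SE 0.343, adjusted p = 0.097; DESeq2 with the block 0.00485). Kif14, a partner of Prc1 and citron kinase, had 17.7 and 12.2 CPM in Large, against 6.03 and 4.00 CPM in Small (log2 1.57, SE 1.02), with no overlap and with log2 differences of 1.53 and 1.57 within numbers 1 and 2. Kif23, the motor of the centralspindlin complex, had 83.1 and 80.5 CPM in Large, against 65.1 and 43.6 CPM in Small (log2 0.59, SE 0.568), and Large was again above Small in both libraries. Kif20a, which brings the chromosomal passenger complex to the midzone, had 188 and 129 CPM in Large, against 179 and 44.2 CPM in Small. This gene overlapped between the groups and was nearly equal within number 1 (log2 0.07).

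**Figure D2:**
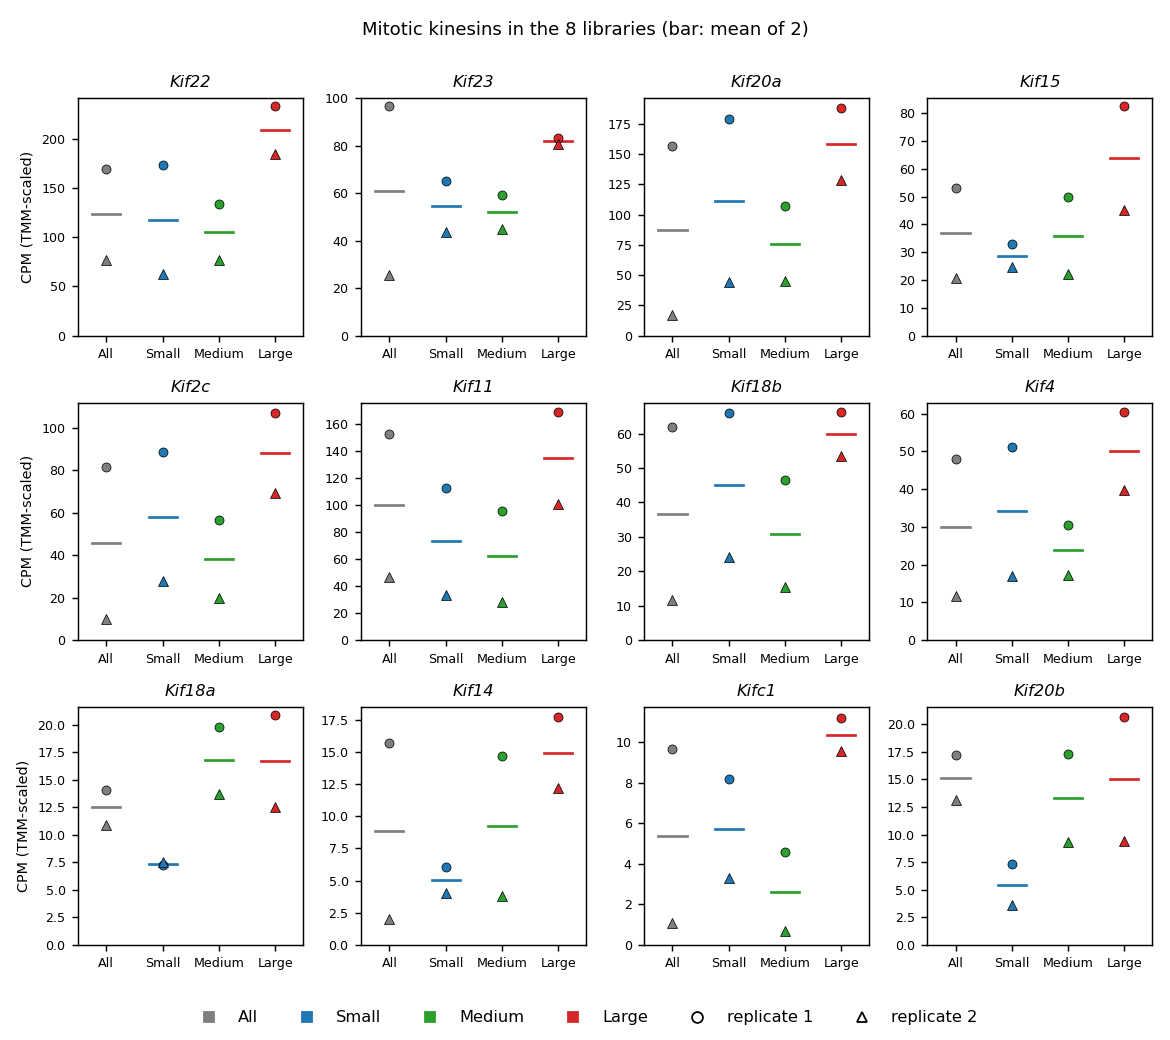
TMM-scaled CPM of the 12 mitotic kinesins in the 8 libraries, with circles for number 1, triangles for number 2 and a bar at the mean of 2; each panel has its own axis from 0. Number 1 was above number 2 in every group for 11 genes, the exception being Kif18a in Small (7.26 and 7.50 CPM), and Kif22 had both Large libraries above the 6 others.

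Cenpe, a kinetochore kinesin whose symbol falls outside the rule, had 29.0 and 10.3 CPM in Large 1 and 2, against 5.32 and 1.64 CPM in Small 1 and 2. The groups did not overlap, and the fitted log2 fold change of 2.49 (SE 1.01, edgeR adjusted p = 0.975) was above that of all 12 mitotic members. With the block it was 2.55 (SE 0.353, edgeR adjusted p = 0.0612), and DESeq2 with the block called it (adjusted p = 1.13e-07).

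Genes that work with the mitotic motors had the same sign. In a list of 24 mitotic partners, which includes Cenpe, 24 of 24 had a fitted difference above 0 in Large against Small, with a median of 0.85 (0.49 within number 1 and 1.44 within number 2). In 13 of 24 both Large libraries lay above both Small libraries, and DESeq2 with the block called 10 of 24 higher, against 17.7% and 4.68% of tested genes. Ndc80, of the kinetochore, had 63.1 and 56.2 CPM in Large, against 28.7 and 13.6 CPM in Small (log2 1.49, SE 0.602). The proliferation marker Mki67 had 60.7 and 18.7 CPM in Large, against 13.5 and 10.4 CPM in Small (log2 1.73, SE 0.900). Top2a, which untangles DNA before chromosomes part, had 400 and 305 CPM in Large, against 212 and 100 CPM in Small (log2 1.18, SE 0.698). None of these 3 passed edgeR's test (adjusted p = 0.975 each). A list of 6 cycling-cell markers, which holds Mki67 and Top2a beside Pcna, Mcm2, Mcm5 and Ccna2, was also fitted higher in Large in 6 of 6. Its median was 0.98 (0.79 within number 1 and 1.16 within number 2). In 6 of 6 the groups did not overlap, and DESeq2 with the block called 4 of 6 higher, against 17.7% and 4.68% of tested genes. Averaged over the groups, this list was higher in number 1 by a median of 0.95.

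Granulocyte and monocyte markers did not share one direction, and 5 of 11 were higher in Large within each number and 0 lower within each. Their sum over 11 genes was 47000 and 24800 CPM in Large 1 and 2, against 48200 and 14100 CPM in Small 1 and 2, and the list's median log2 fold change was 0.05 (-0.30 within number 1 and 0.87 within number 2). Mpo, an enzyme of myeloid granules, had 16500 and 7200 CPM in Large, against 13600 and 3460 CPM in Small. The 6 HSC genes summed to 215 and 857 CPM in Large 1 and 2, against 458 and 1570 CPM in Small 1 and 2. Their median was -1.06 (-1.11 within number 1 and -1.01 within number 2). DESeq2 with the block called 5 of 6 lower, against 4.27% of tested genes. B cell markers summed to 282 CPM in Large 2 and to between 37.6 and 116 CPM in the 7 other libraries. The part of cell makeup in the kinesin differences was not tested.

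The other kinesins showed no common direction between Large and Small. Of the 23 tested members, 10 had a fitted difference above 0 and 13 below 0, near the 49.9% of all tested genes on either side, with a median log2 fold change of -0.24 (-0.06 within number 1 and -0.42 within number 2). The sign of this median was not stable, being 0.06 with GC and length trends removed and 0.02 without Small 2. Both Large libraries lay above both Small libraries in 5 of 23 and below them in 6 of 23, against 17.7% and 14.7% of tested genes. None was called by edgeR (adjusted p from 0.975 to 0.998), with or without the block. DESeq2 with the block called 2 of 23, Kif5b higher and Kif3c lower in Large, against 8.95% of all tested genes. Both shares count genes given no adjusted p as not called. Members given none here were Kif1c, Kif5a, Kif5c, Kif6, Kif7, Kif9, Kif19a, Kif21a, Kif26b, Kifc2 and Kifc3.

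Kif5b, the heavy chain of conventional kinesin that carries cargo in most cell types, had 98.2 and 69.9 CPM in Large 1 and 2, against 51.7 and 45.6 CPM in Small 1 and 2. The means were 84.1 ± 20.0 CPM in Large and 48.6 ± 4.37 CPM in Small (SD, n = 2 each), and both Small libraries lay below the 6 others. The edgeR log2 fold change was 0.79 (SE 0.288, unadjusted p = 0.0295, adjusted p = 0.975), and 0.77 with the block (SE 0.154, adjusted p = 0.0737; DESeq2 with the block 0.0013). Its neuronal relative Kif5a had 3 and 10 counts in Large 1 and 2, against 2 and 122 counts in Small 1 and 2. The fitted log2 fold change of -3.31 (SE 1.80) for Kif5a rested on Small 2, and without that library it was 1.70. Kif5c, also known from neurons, had at most 11 counts in any library.

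The heterotrimeric kinesin genes had fitted values on both sides of 0. Kif3a and Kif3b form the motor pair of kinesin-II, known for transport into cilia, and Kif3c can replace Kif3b beside Kif3a. Kif3c had 4.43 and 8.75 CPM in Large 1 and 2, against 12.6 and 20.0 CPM in Small 1 and 2, and Large was below Small in both libraries. The edgeR log2 fold change was -1.31 (SE 0.722, adjusted p = 0.975), and -1.37 with the block (SE 0.376, adjusted p = 0.118; DESeq2 with the block 0.0141). Kif3a had 17.2 and 18.6 CPM in Large, against 13.8 and 19.6 CPM in Small (log2 0.10, SE 0.370), and Kif3b had 14.4 and 12.9 CPM in Large, against 15.0 and 17.3 CPM in Small (log2 -0.24, SE 0.299). Kif17, which transports receptor vesicles in neurons, had 8.01 and 16.7 CPM in Large, against 12.2 and 22.6 CPM in Small, and its groups overlapped.

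The vesicle and organelle motors of the kinesin-3 group were among the more abundant others. Kif1b, a carrier of mitochondria and synaptic vesicle precursors, had 52.0 and 34.5 CPM in Large 1 and 2, against 31.6 and 19.5 CPM in Small 1 and 2 (log2 0.76, SE 0.634). Kif13a, which moves recycling endosomes, had 29.5 and 30.8 CPM in Large, against 40.8 and 50.2 CPM in Small (log2 -0.59, SE 0.325). Kif1b thus lay above Small and Kif13a below it without overlap, and both Small libraries of Kif13a were above the 6 others, as in 3.76% of tested genes. Kif16b, a motor of early endosomes, had 33.6 and 35.0 CPM in Large, against 31.5 and 35.4 CPM in Small (log2 0.04, SE 0.264), and its 8 values stayed between 26.5 and 41.5 CPM. Kif1c, a carrier between the Golgi and the endoplasmic reticulum, had 17 and 5 counts in Large, against 27 and 24 counts in Small (log2 -1.16, SE 1.00).

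Kif2a and Kif24, relatives of Kif2c that also take microtubule ends apart, both lay higher in Large than in Small. Kif2a, which works at spindle poles and in neurites, had 13.7 and 11.3 CPM in Large 1 and 2, against 5.19 and 9.07 CPM in Small 1 and 2 (log2 0.81, SE 0.442). Kif24, which acts at centrioles and restrains cilium formation, had 18.3 and 12.5 CPM in Large, against 8.10 and 9.21 CPM in Small (log2 0.83, SE 0.598). Neither overlapped between the groups in CPM, but on the deposited log2(TPM + 1) values the difference of Kif24 was -0.03. Neither was called by edgeR (adjusted p = 0.975) or by DESeq2 with the block (adjusted p = 0.258 for Kif2a and 0.373 for Kif24). Kif21a, a regulator of microtubule growth, had 24 and 26 counts in Large, against 10 and 10 counts in Small (log2 1.32, SE 0.672). Kifc3, a minus-end motor, had 2 and 21 counts in Large, against 16 and 38 counts in Small (log2 -1.28, SE 1.24), with overlap.

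Members too low to test were Kif1a, Kif26a, Kif27 and Kif28, with at most 13 counts in any library, and Kif2b and Kif12, at 0 counts in all 8. The tested members not described so far are Kif6, Kif7, Kif9, Kif13b, Kif19a, Kif21b, Kif26b and Kifc2. Of these, Kif21b, a motor that limits microtubule growth, had 8.65 and 8.81 CPM in Large, against 11.2 and 17.0 CPM in Small. Kif13b had 12.2 and 8.61 CPM in Large, against 11.6 and 13.7 CPM in Small, and Kif9 had 1.86 and 5.26 CPM in Large, against 1.23 and 8.78 CPM in Small. Kif7, a regulator of Hedgehog signalling, had 3.22 and 3.49 CPM in Large, against 5.12 and 3.86 CPM in Small. Kif21b and Kif7 lay below Small without overlap. Kifc2, Kif26b and Kif6 had 0 counts in at least 1 library and at most 57, 60 and 17 counts in any.

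**Figure D3:**
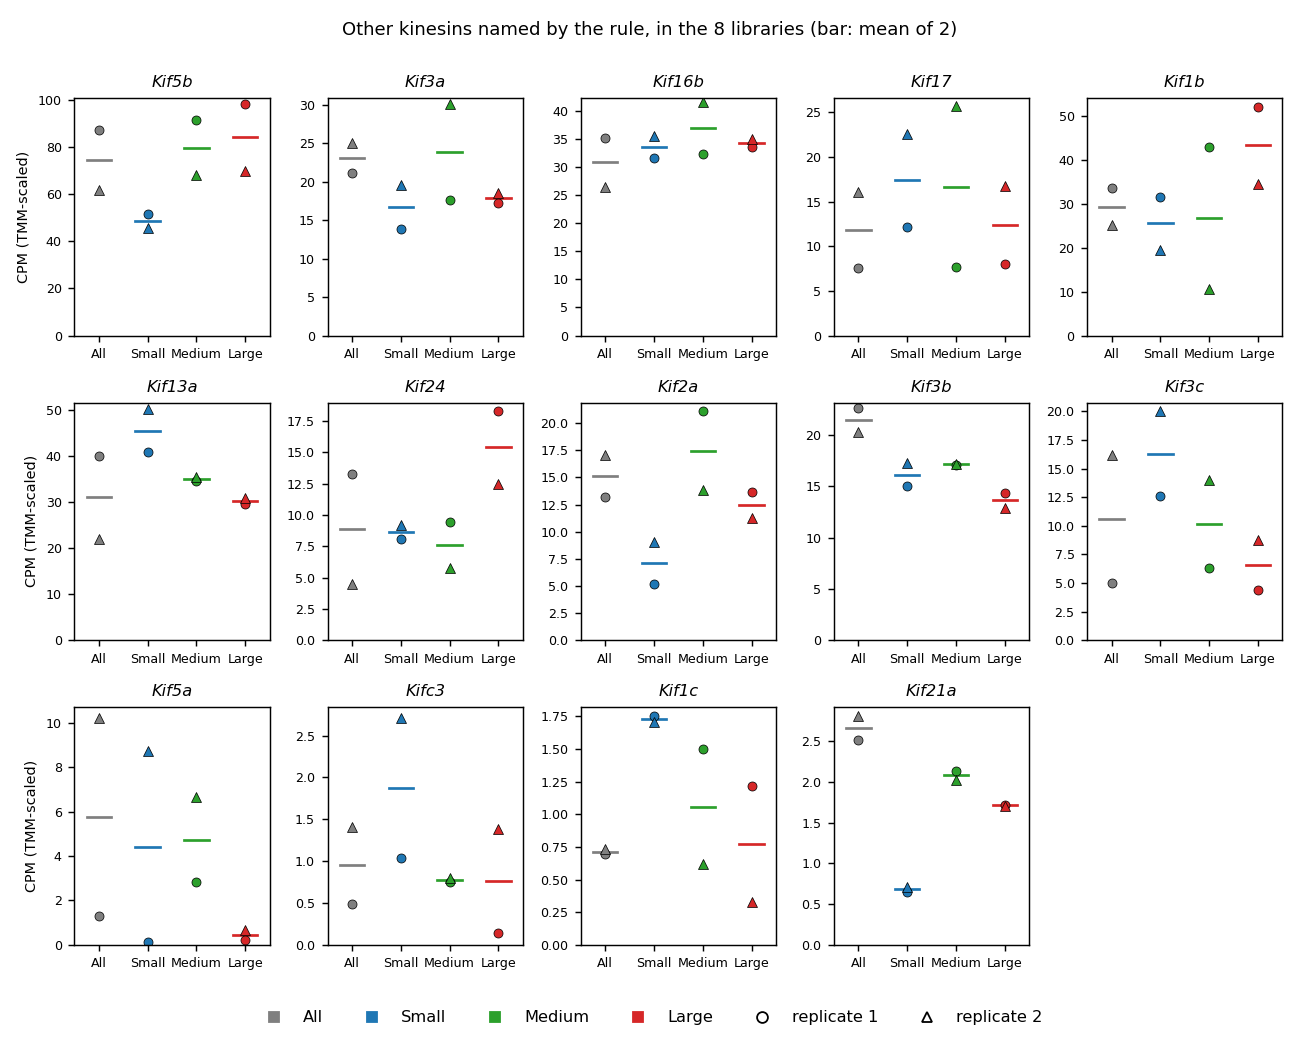
TMM-scaled CPM of the 14 other kinesins named by the rule, in the 8 libraries, with circles for number 1, triangles for number 2 and a bar at the mean of 2; each panel has its own axis from 0. Kif5b, Kif2a and Kif21a had both Small libraries below the 6 others, and Kif13a and Kif1c had both above.

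**Figure D4:**
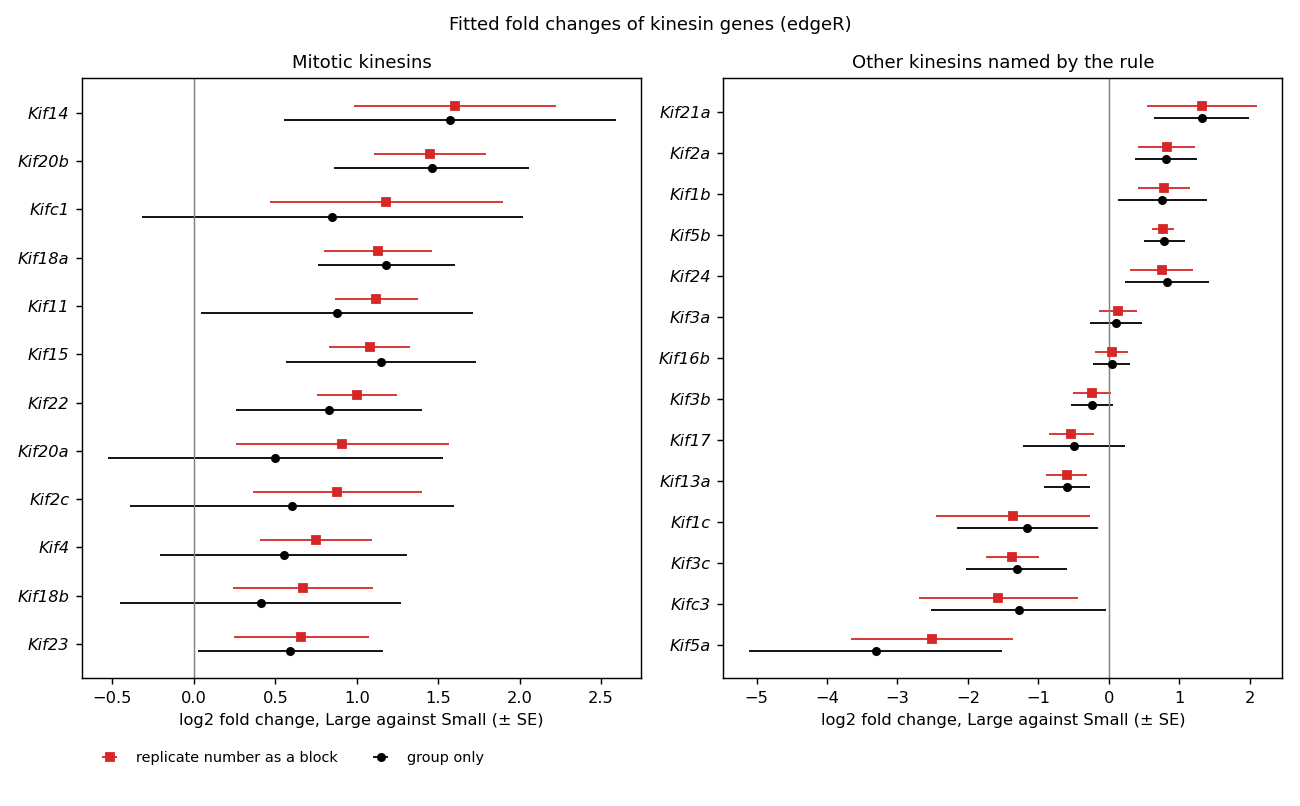
Fitted log2 fold changes (± SE) of Large against Small for the 12 mitotic kinesins and the 14 other kinesins named by the rule, without (black circles) and with (red squares) the replicate number as a block; a positive value is higher in Large. All 12 mitotic members lie above 0, and the others lie on both sides.

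Partners of the transport motors had mostly negative fitted differences. Of 29 listed adaptors, light chains and cargo receptors, 27 were tested, 8 with a difference above 0 and 19 below 0 in Large against Small (median -0.28, and -0.35 and -0.22 within numbers 1 and 2). In 10 of 27 the 2 Large values were under the 2 Small values, and DESeq2 with the block called 2 lower, against 14.7% and 4.27% of tested genes. With GC and length trends removed the median was -0.11. Madd, an adaptor of Kif1b, had 65.7 and 98.8 CPM in Large, against 114 and 152 CPM in Small (log2 -0.69, SE 0.285). The kinesin light chain Klc4 had 15.7 and 26.7 CPM in Large, against 31.8 and 48.3 CPM in Small (log2 -0.92, SE 0.552). Arl8a, which links lysosomes to kinesin, and Map7d1, which recruits Kif5b to microtubules, had log2 fold changes of -0.56 and -0.67.

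Dynein and dynactin, the motor system that moves cargo the other way, showed a median near 0. Of 26 tested genes, 14 had a difference above 0 and 12 below 0 (median 0.01), with Hook3 at 0.55, Dynlrb1 at 0.46, Dync1h1 at -0.85 and Dync1i1, with under 2 CPM in every library, at -3.85. Tubulins, the track subunits, had a median of 0.35 over 13 tested genes, and 8 were above 0. Tuba1b had 3150 and 2850 CPM in Large, against 1850 and 1220 CPM in Small (log2 0.97, SE 0.332), and Tubb5 had 603 and 520 CPM in Large, against 360 and 204 CPM in Small (log2 0.99, SE 0.369). For both genes the Large libraries lay above the Small ones. Tubb2b and Tubg2, with fitted values of -3.26 and 6.04, had at most 2.00 CPM in any library. None of the partner, dynein or tubulin genes passed edgeR's test. DESeq2 with the block called 4 of 13 tubulins higher and 0 lower. Of the 26 dynein and dynactin genes it called 2 higher and 1 lower, against 4.68% higher and 4.27% lower of tested genes.

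Large against Medium also placed the mitotic kinesins higher in Large, without the steps in Kif18a and Kif20b. This comparison and Large against Small share the Large libraries. Of the 12 mitotic members, 11 were fitted above 0 (48.8% of tested genes), with a median log2 fold change of 0.97 (0.76 within number 1 and 1.39 within number 2), and 11 were higher within both numbers, against 32.9% of tested genes. In 8 of 12 both Large libraries lay above both Medium libraries, against 18.3% of tested genes. With the block the median was 1.09. Without Medium 2 it was 0.44, and without Medium 1 it was 1.68. The edgeR test called 0 genes (0.0%; adjusted p from 0.989 to 1.0 for the 12), with 301 (1.87%) at an unadjusted p under 0.05 and 2 called by DESeq2 without the block, and DESeq2 with the block called 959 (5.97%, and 3.44% higher), among them Kif22, Kif15, Kif2c, Kif11, Kif18b and Kif4, all higher in Large.

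Kif11 had 169 and 101 CPM in Large 1 and 2, against 95.9 and 28.3 CPM in Medium 1 and 2, with a log2 fold change of 1.12 (SE 0.839) and of 1.36 with the block (SE 0.259, edgeR adjusted p = 0.138; DESeq2 with the block 0.000172). Kif2c had 107 and 69.2 CPM in Large, against 56.4 and 19.8 CPM in Medium (log2 1.21, SE 1.01; DESeq2 with the block 0.0221). Kif22 had 233 and 185 CPM in Large, against 134 and 77.1 CPM in Medium (log2 0.98, SE 0.572; DESeq2 with the block 0.00255). In these 3 genes the Large libraries lay above both Medium libraries. Among the mitotic members Kifc1 had the highest fitted value, 1.98 (SE 1.21), with 156 and 145 counts in Large, against 73 and 11 counts in Medium. With the block the value of Kifc1 was 2.62 (SE 0.77, edgeR adjusted p = 0.186), and DESeq2 with the block gave it no adjusted p. Kif18a had 20.9 and 12.5 CPM in Large, against 19.8 and 13.7 CPM in Medium (log2 -0.01, SE 0.413), and Kif20b had 20.7 and 9.40 CPM in Large, against 17.3 and 9.30 CPM in Medium (log2 0.17, SE 0.584).

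Granulocyte and monocyte markers were also higher in Large than in Medium, with a list median of 0.91 and sums of 47000 and 24800 CPM in Large, against 26800 and 9790 CPM in Medium. The HSC genes summed to 215 and 857 CPM in Large, against 690 and 1210 CPM in Medium, with a median of -0.91 (-1.26 with the block). DESeq2 with the block called 5 of 6 lower, against 406 of the 16066 tested genes. The part of either list in the mitotic kinesin differences was not tested here either. The other kinesins had a median of -0.41 (-0.08 and -0.46 within numbers 1 and 2, and -0.37 with the block), with 5 above 0 and 18 below 0 (51.1% of tested genes). Without Medium 2 this median was -0.03. Both Large libraries lay below both Medium libraries in 7 of 23, against 17.2% of tested genes. Kif5b was close to equal, with 98.2 and 69.9 CPM in Large, against 91.4 and 68.0 CPM in Medium (log2 0.08, SE 0.286). Kif19a, a motor of cilium tips, had 2 and 5 counts in Large, against 20 and 40 counts in Medium (log2 -2.93, SE 1.03, unadjusted p = 0.0249, edgeR adjusted p = 0.989).

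In Medium against Small the mitotic kinesins had fitted values on both sides of 0. Of the 12, 4 had a fitted difference above 0, against 49.0% of tested genes, and the median was -0.20 (-0.30 within number 1, -0.03 within number 2, and -0.15 with the block). Without Small 1 it was 0.65, without Medium 2 it was 0.18, without Small 2 it was -0.79 and without Medium 1 it was -0.80. In 2 of 12, Kif18a and Kif20b, both Medium libraries lay above both Small libraries, against 16.6% of tested genes. The edgeR test called 0 genes (0.0%; adjusted p = 1.0 for all members), with 695 (4.33%) at an unadjusted p under 0.05 and 46 called by DESeq2 without the block, and DESeq2 with the block called 525 (3.27%, and 1.72% higher), among them Kif18a, Kif20b and Kif5b, all higher in Medium. Kif18a had 19.8 and 13.7 CPM in Medium 1 and 2, against 7.26 and 7.50 CPM in Small 1 and 2 (log2 1.18, SE 0.420; DESeq2 with the block 0.0481). Kif20b had 17.3 and 9.30 CPM in Medium, against 7.33 and 3.57 CPM in Small (log2 1.29, SE 0.596; DESeq2 with the block 0.027). Cenpe had 25.5 and 9.11 CPM in Medium, against 5.32 and 1.64 CPM in Small (log2 2.31, SE 1.00).

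The 8 mitotic members with a fitted value below 0 held spindle, chromosome and cytokinesis motors. Kifc1 had 4.56 and 0.677 CPM in Medium 1 and 2, against 8.17 and 3.28 CPM in Small 1 and 2 (log2 -1.13, SE 1.19, and -1.45 with the block). Kif20a had 107 and 45.0 CPM in Medium 1 and 2, against 179 and 44.2 CPM in Small 1 and 2 (log2 -0.55, SE 1.03). Kif2c, Kif18b and Kif4 had log2 fold changes of -0.61, -0.54 and -0.52, and Kif11, Kif22 and Kif23 of -0.24, -0.16 and -0.06. All 8 overlapped between the groups. The mitotic partners as a list had a median of -0.17. Kif14 was fitted at 0.88 (SE 1.01), with 14.7 and 3.76 CPM in Medium, against 6.03 and 4.00 CPM in Small, so that this value came from Medium 1.

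Among the other kinesins, Medium against Small had a median of 0.09 (0.08 with the block), and 4 of 23 had an unadjusted p under 0.05 and were higher, against 2.81% of tested genes. These were Kif5b, Kif2a, Kif21a and Kif19a. Kif5b had 91.4 and 68.0 CPM in Medium 1 and 2, against 51.7 and 45.6 CPM in Small 1 and 2 (log2 0.71, SE 0.288; DESeq2 with the block 0.00944). Kif2a had 21.1 and 13.8 CPM in Medium, against 5.19 and 9.07 CPM in Small (log2 1.29, SE 0.445; DESeq2 with the block 0.0762). For both genes the Medium libraries lay above the Small ones.

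Over the 3 size gates, 5 members thus had both Small libraries below the 6 others, namely Kif18a and Kif20b of the 12 mitotic and Kif5b, Kif2a and Kif21a of the 23 other tested members, against 4.89% of tested genes. This pattern was looked for after the values were seen. Of these 5, Kif18a, Kif2a, Kif20b and Kif5b have the transcripts lowest in GC content of all 41 members. GC content is the share of G and C bases, which can alter how well a transcript is amplified and sequenced, and it was 38.3%, 38.6%, 39.4% and 41.1% in these 4. Cenpe, at 42.9%, is close to them. Kif11 and Kif15, the next lowest at 42.2% and 42.7%, had fitted Medium against Small values of -0.24 and 0.32.

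Across the 12 mitotic members, GC content and the Medium against Small log2 fold change correlated at a Pearson r of -0.80 and a Spearman rho of -0.80, and for Large against Medium at 0.78 and 0.65. These are correlations across genes of the same libraries, which are not independent replicates, and Medium enters both. Across all 16017 tested genes with a known transcript the Spearman rho was -0.20 for Medium against Small and 0.0 for Large against Medium. Across the 23 other kinesins it was -0.30 and -0.38. For Large against Small the Spearman rho was -0.60 across the 12 mitotic members, -0.63 across the 23 others and -0.20 across all tested genes. After removal of the trends in transcript length and GC content, the Medium against Small log2 fold changes were 0.79 for Kif18a, 0.90 for Kif20b, 0.45 for Kif5b and 0.94 for Kif2a. The Spearman rho across the mitotic members was then -0.62 for Medium against Small and 0.61 for Large against Medium. For Large against Small it was then -0.23 across the mitotic members and -0.52 across the other kinesins. The part of GC content that such trends miss was not tested.

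**Figure D5:**
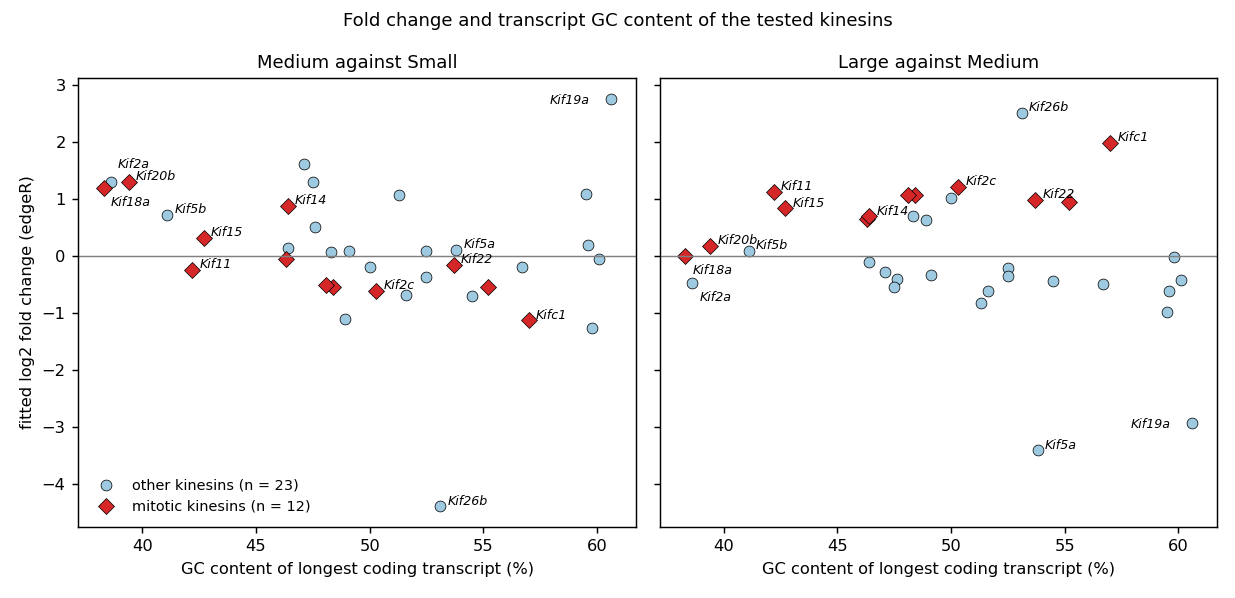
GC content of the longest coding transcript (x axis, percent) and fitted log2 fold change (y axis) of the 35 tested kinesins in Medium against Small and in Large against Medium, with mitotic members as red diamonds. Kif18a and Kif20b lie high in Medium against Small (1.18 and 1.29) and near 0 in Large against Medium (-0.01 and 0.17).

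Against All HSCs, the median log2 fold change of the mitotic kinesins was -0.11 in Small, -0.22 in Medium and 0.75 in Large. In Small and Medium the sign differed between the library numbers. Medians within numbers 1 and 2 were -0.34 and 0.66 in Small, and -0.47 and 0.37 in Medium. The mitotic sums of All 1 and All 2 differed more (448 and 170 TPM) than those of any other pair. Kif20a, for example, had 157 CPM in All 1 and 17.1 CPM in All 2. In Large against All, 11 of 12 were fitted above 0 (47.5% of tested genes) and 10 of 12 were higher within both numbers, against 31.2% of tested genes, with medians of 0.26 within number 1 and 1.71 within number 2. The edgeR test called 0 genes in each of these 3 comparisons (0.0%), with 637 (3.96%) in Small, 262 (1.63%) in Medium and 504 (3.14%) in Large at an unadjusted p under 0.05. DESeq2 with the block called 1651 genes in Large against All (10.3%, of which 6.13% higher and 4.15% lower), among them Kif22, Kif15, Kif2c, Kif18b and Kif4 as higher and Kif21b and Kif5a as lower. In Small against All it called 374 genes (2.33%, and 0.778% lower), with Kif20b lower (7.33 and 3.57 CPM in Small, against 17.2 and 13.1 CPM in All; adjusted p = 0.00968), and in Medium against All it called 12 genes (0.0747%) and no kinesin.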

How the data were processed

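RNA was measured in 8 libraries of sorted mouse HSCs. Per the submitters' processing notes the genome build was mm10 and the tools were STAR (2.5.3a), RSEM (1.3.0) and SAMtools (1.3). The sources used here do not give the annotation release or the use of strand in counting. The authors deposited estimated counts per gene, rounded to whole numbers and unscaled, and log2(TPM + 1) values, whose TPM add up to the same total in each library. Gene IDs were matched to GENCODE M21, in which 50462 of 50686 had a symbol, and coordinates are of that annotation or, for promoter windows, of RefSeq.

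Genes kept by filterByExpr (minimum count 10) were tested on the counts in R 4.3.3 with the quasi-likelihood test of edgeR 4.0.16 (TMM, robust), fitted to the 4 groups of 2 libraries with no other term (4 residual degrees of freedom). P-values are two-sided and Benjamini-Hochberg adjusted over the 16066 genes, with a threshold of 0.05. Medians of lists are of fitted log2 fold changes. Same-numbered libraries were treated as paired, because their deviations from the group means correlated at 0.358 to 0.439 in all 6 pairs of groups; the pairing comes from these correlations and the titles' replicate numbers. Alternatives were DESeq2 (1.42.0), limma-trend (limma 3.58.1) on the log2 values, other scaling, no filter, the block, removal of GC and length trends, and each library left out. DESeq2 and limma-voom with the block were added after the data were seen. The edgeR fits, group only and with the block, were tried on simulated counts for Large against Small. The simulation held no difference between library numbers, and the DESeq2 and limma fits were not simulated. Intervals from counts cover counting error only, as amplified reads are not independent molecules. An exact test of 2 against 2 libraries cannot go below 0.333.

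The members and lists were chosen with earlier results of these data known. Named are all 12 mitotic kinesins, the 10 others with the highest mean TPM, the 4 others with the largest fold change in each direction in Large against Small at a mean of at least 1 CPM, and up to 4 genes of each partner list by unadjusted p; further members and values were added to account for the whole family. HSCs from mice given PD or rapamycin were not analysed here. Protein sequences were not used here.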

Additional observations from a re-analysis of the deposited data

How the results depend on the processing

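The number of genes called depended on the tool. Group-only edgeR, RLE scaling, the block in edgeR and removed GC and length trends gave 0 genes in all 6 comparisons. In the order Large against Small, Large against Medium, Medium against Small, Small against All, Medium against All and Large against All, edgeR without a filter called 55, 58, 73, 69, 48 and 121 genes, DESeq2 12, 2, 46, 28, 6 and 8, and DESeq2 with the replicate block 1438, 959, 525, 374, 12 and 1651. Limma-trend called 1 gene in each comparison of Large, and limma-voom with the block 205 in Large against Small and 117 in Large against All. Kinesins called by DESeq2 with the block were 7, 6, 3, 1, 0 and 7 in the same order, and limma-voom with the block called 1 (Kif15, Large against Small). The cause of these differences was not tested.

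With the replicate block the mitotic medians were 1.04, 1.09 and -0.15 in Large against Small, Large against Medium and Medium against Small, and those of the other kinesins -0.24, -0.37 and 0.08. Leaving out 1 library gave mitotic medians of 0.30 to 1.66, 0.44 to 1.68 and -0.80 to 0.65, and medians of the other kinesins of -0.48 to 0.02, -0.38 to -0.03 and -0.03 to 0.31. Each such fit compares 2 libraries with a single one of 1 number, and that lone library is assumed to vary like the other groups. With GC and length trends removed the median of the other kinesins was 0.06 in Large against Small (0.04 with the block) and 0.23 in Medium against Small (0.21 with the block), and the Medium against Small value was 0.06 without a filter and 0.01 by limma-trend. Of 351 alternative values of 27 named genes in Large against Small, 11 changed sign. With 1 library left out, 8 of these occurred, with ranges of -0.18 to 1.84 for Kif20a, -0.01 to 1.66 for Kif2c, -0.14 to 1.31 for Kif18b, -0.04 to 1.56 for Kif4, -1.12 to 0.02 for Kif17, -4.31 to 1.70 for Kif5a, -0.13 to 0.37 for Kif3a and -0.05 to 0.12 for Kif16b. The others, by limma-trend, were Kif3a (-0.08), Kif16b (-0.16) and Kif24 (-0.03). With 2 libraries per group, differences below the spread between library numbers are not resolved without a block, and members under about 5 CPM rest on few counts.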
